A study of Rattus norvegicus with 14 samples.

Results

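Muscles of 10 rats that had at some time eaten a diet depleted of vitamin D were compared with muscles of 4 rats that never had, out of 14 muscles in all. The 10 were chosen by title alone: 6 carried the title of a depletion diet, and 4 that of depletion followed by repletion with vitamin D. The 4 others were titled as control diet, which held 1000 IU of vitamin D per kg. All were Wistar rats, and the tissue was the plantaris, a fast calf muscle. Total RNA was prepared with Trizol, Cy3 was the label, and each muscle went on 1 Agilent array; by their titles the samples are biological replicates. The vitamin D content of the other diets, the weeks of feeding, and the rats' age and sex are not given in the sources used. For depletion replicate 1 the diet field names the repletion diet, against its title; it had been depleted under either label, so its place among the 10 does not depend on which is right. The 10 muscles are called ever depleted below.

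Vitamin D reaches tissues as 25-hydroxyvitamin D, made in the liver, which Cyp27b1 turns into the active hormone. The hormone binds the vitamin D receptor Vdr, which pairs with a retinoid X receptor on DNA and switches genes on or off, Cyp24a1 among them, the enzyme that breaks the hormone down. Vdr is scarce in adult muscle and abundant in many immune cells, where the hormone is known to dampen inflammatory signalling. Lasting deficiency is known for muscle weakness and thinning of fast fibres. Pooling both depleted groups asks which transcripts differed after depletion whether or not vitamin D had been given back.

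A level is the log2 signal after subtracting log2 of that array's 75th percentile, so 0 is that percentile and each unit is a doubling; levels of different genes are not compared. A difference is ever depleted minus control, on the log2 scale, with its SE from limma. The arrays lay on 5 slides, and slide explained a share of 0.996 of the first principal component (39.1% of the variance) against 0.014 for ever depleted or not, so slide was a block in the fit. Only slides 1, 2 and 4 held both groups. They gave the difference weights of 46.2%, 30.8% and 23.1%, from the 4 controls and 5 ever depleted muscles (depletion replicates 1, 2 and 5, repletion replicates 1 and 2). The other 5 ever depleted muscles, on slides 3 and 5, added only to the estimate of spread. The share of spots well above background was 82.8% to 88.1% over the arrays, with means of 86.1% in ever depleted muscles and 86.3% in controls (exact permutation p = 0.817, two-sided). The tissue matched its label: all 17 measured skeletal muscle genes, among them the actin Acta1 and creatine kinase Ckm, were well above background on all 14 arrays, and their median difference was 0.02, with 9 higher and 8 lower.

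No transcript passed the test for a history of depletion. Of 26391 probes, 0 (0.0%) had an adjusted p under 0.05 in limma, and the lowest adjusted p was 0.989. At an unadjusted p under 0.05 there were 432 higher and 423 lower probes, together 3.24% of those tested, fewer than the share of 0.05 that the threshold itself allows. Counted as genes, each by its brightest probe, 302 of 17454 were higher (1.73%) and 278 were lower (1.59%). The median difference of all genes was -0.0033, with 49.1% of them higher in ever depleted muscle. The range from the 5th to the 95th percentile was -0.37 to 0.41, and the median SE was 0.16. All genes described below therefore have an adjusted p of 0.989 or more, and their values describe these 14 muscles. The number of arrays limits the precision.

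A small set of genes had no overlap between the groups. In 13 genes, 0.0745% of those tested, all 10 ever depleted muscles lay above all 4 controls, and in 10 genes, 0.0573%, all 10 lay below. Lack of overlap fixes the sign within slides 1, 2 and 4 too, so a shared sign there adds no support. The counts with 1 sign were 13 and 9, as C12h12orf43, a lower gene, had a missing value, so its difference within slide 4 could not be taken. Genes without overlap that had the largest differences were RNA-binding proteins, a protease and a carbonic anhydrase on the higher side. On the lower side they were a sorting receptor and a glutamine transporter.

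Plat, tissue plasminogen activator, a secreted protease that dissolves clots and acts on matrix, had 1 of the most even patterns. Its level was 0.23, 0.01, 0.23 and 0.22 in control replicates 1 to 4, and 0.38 at the lowest, 0.63 at the median and 0.73 at the highest in the 10 ever depleted muscles. The groups did not overlap, and control replicate 2 was the low one among controls. The difference was 0.46 ± 0.11 (limma's unadjusted p = 0.00198), and within slides 1, 2 and 4 it was 0.59, 0.27 and 0.46. It was 0.49 in the depletion group and 0.42 in the repletion group, each against the same controls. Its probe maps to chromosome 16, 73711476 to 73711535, in rn4, the build of the array files, as do all probe positions below.

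Ppie, a peptidyl-prolyl isomerase of the spliceosome, was at -1.85, -2.01, -1.90 and -1.96 in controls and ran from -1.80 over a median of -1.57 to -1.32 in ever depleted muscles. Controls were low and tightly grouped, and the nearest ever depleted muscles were only just above them. The difference was 0.43 ± 0.11, and 0.56, 0.38 and 0.24 within the 3 slides (chromosome 5, 142445869 to 142445928). Hnrnpa1, a splicing factor, was at 1.72, 1.76, 1.83 and 1.45 in controls and from 1.89 over 2.17 to 2.84 in ever depleted muscles (chromosome 7, 142154435 to 142154494). No muscle crossed between the groups here either, but the difference of 0.61 ± 0.18 was seen by 1 probe only, and the other Hnrnpa1 probe gave 0.08. Its relative Hnrnpa3 differed by 0.35 ± 0.17, again with no overlap. Ewsr1, an RNA-binding protein of the FET family, differed by 0.42 ± 0.15, and by 0.26 without depletion replicate 1, its highest muscle.

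Car2, carbonic anhydrase 2, which interconverts carbon dioxide and bicarbonate, was at -1.02, -0.83, -1.05 and -0.85 in controls and from -0.71 over -0.42 to 0.05 in ever depleted muscles (chromosome 2, 88077739 to 88077798). All 10 were above every control. The difference was 0.48 ± 0.15, and 0.30 without control replicate 3, whose slide gave the widest gap, 0.88.

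Among genes lower in every ever depleted muscle, Sort1, sortilin, a sorting receptor that takes part in building the vesicles of the insulin-responsive glucose transporter, was at -0.31, -0.03, -0.29 and -0.27 in controls. In ever depleted muscles it ran from -1.31 over -0.71 to -0.31. The groups came within rounding of each other at that value. The difference was -0.55 ± 0.19, its other probe gave -0.29, and within slides 1, 2 and 4 it was -0.84, -0.47 and -0.09 (chromosome 2, 203930799 to 203930858). Slc38a3, a transporter that carries glutamine across the cell membrane, was at -1.12, -1.31, -1.08 and -1.26 in controls and from -2.30 over -1.53 to -1.37 in ever depleted muscles. All 10 lay below every control, and the lowest was depletion replicate 1. The difference was -0.53 ± 0.18, and -0.66, -0.58 and -0.22 within the 3 slides (chromosome 8, 112899099 to 112899158). Maco1, a membrane protein of the endoplasmic reticulum, differed by -0.27 ± 0.11, with its other probe at -0.13. Plekha2, which binds membrane phosphoinositides, differed by -0.59 ± 0.25, and by -0.32 without depletion replicate 1. The uncharacterised 4933427D14Rikl differed by -0.62 ± 0.15, and by -0.23 on the authors' values. Rnf225, a RING finger protein, differed by -0.58 ± 0.38 and was well above background on 4 of the 10 ever depleted muscles, so its low values there are uncertain.

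**Figure D1:**
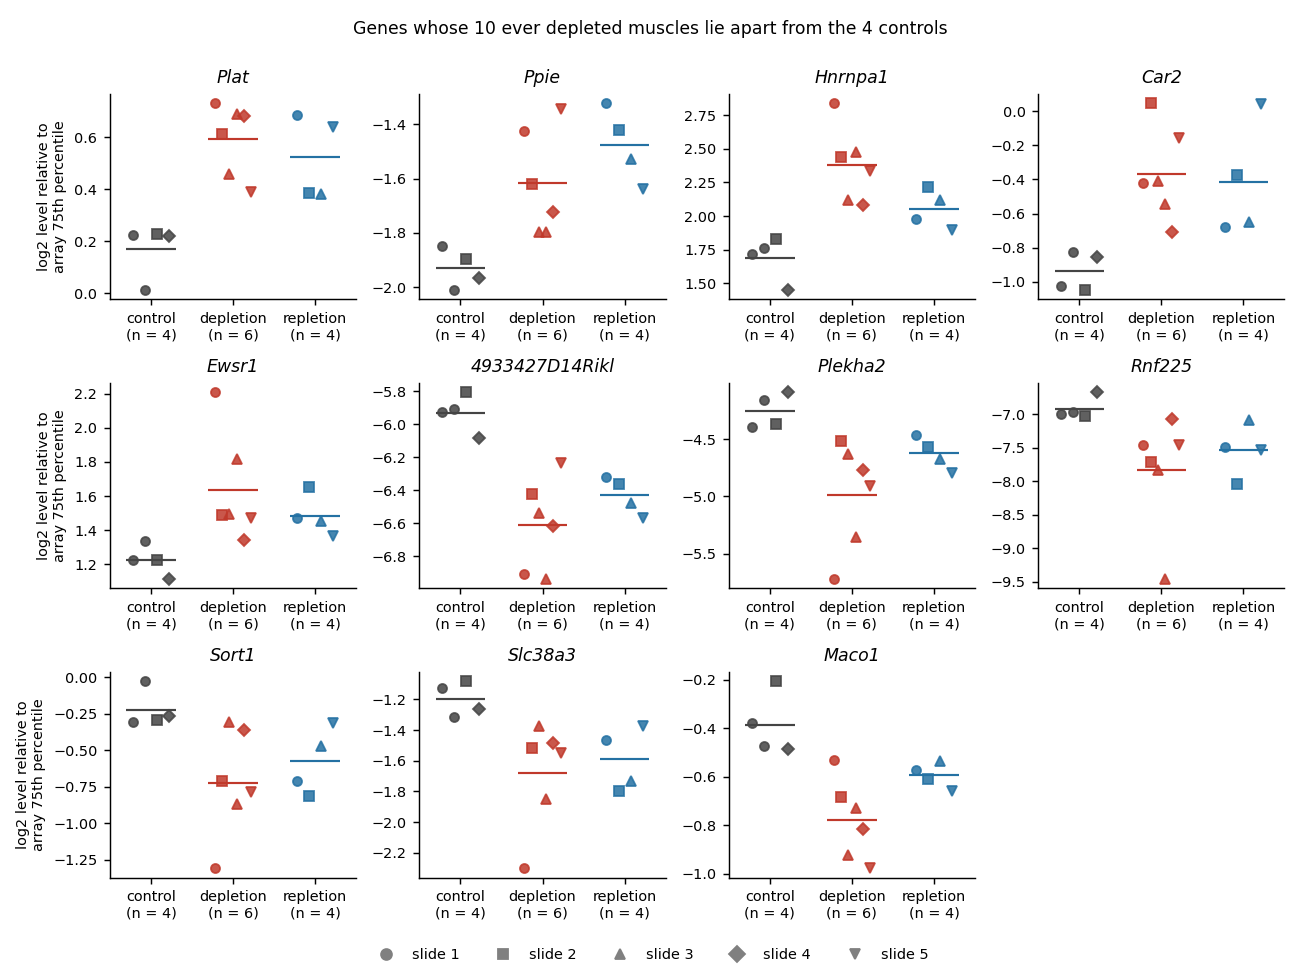
Levels of 11 genes in each muscle, on the log2 scale relative to the 75th percentile of the array; each point is 1 muscle, its shape gives the slide, and horizontal lines are group means. The genes were chosen because all depletion (n = 6) and repletion (n = 4) muscles lie on 1 side of the 4 controls. Slide 3 (upward triangles) and slide 5 (downward triangles) hold no control.

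Ranked by limma's unadjusted p rather than by overlap, the named genes higher in ever depleted muscle began with Ccl3, Fcgr3a and Plat. Ccl3 is a chemokine that draws in macrophages. It was at -6.39, -6.53, -6.90 and -7.77 in controls and from -6.78 over -6.11 to -4.00 in ever depleted muscles. These are dim signals, well above background on 3 of 4 control and all 10 ever depleted arrays, and the lowest ever depleted muscle fell among the controls. The difference was 1.62 ± 0.32 (unadjusted p = 0.00047), and 1.75, 0.78 and 2.46 within slides 1, 2 and 4. Fcgr3a, an activating receptor for antibody on macrophages and NK cells, was at -6.74, -6.49, -6.08 and -6.40 in controls and from -6.09 over -5.51 to -5.18 in ever depleted muscles. All but the lowest of these lay above the controls, and the 3 slides gave 0.95, 0.84 and 0.74 for a difference of 0.87 ± 0.20. Both genes rest on dim probes: with normexp background correction Ccl3 was at 0.27 and Fcgr3a at -0.05, a change of sign.

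Brighter probes kept more of their difference. Vtcn1, a B7 family protein that restrains T cells, was at -0.02, -0.40, 0.62 and 0.51 in controls and from 0.53 over 0.97 to 2.00 in ever depleted muscles. Controls of slide 1 were the low ones, and its difference of 1.18 ± 0.30 came with 1.94 within slide 1 against 0.50 and 0.56 within slides 2 and 4. Both Vtcn1 probes were higher, the other by 1.08 (chromosome 2, 195942066 to 195942125). Mns1, a structural protein of sperm flagella and cilia, was at -2.28, -3.20, -3.33 and -3.78 in controls and from -2.85 over -2.50 to -1.42 in ever depleted muscles. Control replicate 1 lay among the ever depleted muscles and the other controls below them. The difference was 0.86 ± 0.22, with similar values of 0.85, 0.78 and 0.97 within the slides. Serping1, the C1 inhibitor that holds the first step of complement in check, differed by 0.43 ± 0.12 with slide as a block. It overlapped widely, from 2.38 to 2.75 in controls and from 2.28 to 3.29 in ever depleted muscles, and differed by 0.22 without the slide block.

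The rest of the genes with the smallest p on the higher side were dim. Cyp4f1, a fatty acid hydroxylase of the P450 family, differed by 0.77 ± 0.19, and the RNA-binding Celf4 by 0.83 ± 0.22, but by 0.10 and -0.16 with normexp. Or2y16 and Or11g24 are olfactory receptor genes. Or2y16 was not well above background on any control array and was so on 7 of 10 ever depleted arrays. It passed the filter on dim probes only through the ever depleted arrays, and with normexp its difference was 0.14, so no size is given for it. Or11g24 was well above background on 3 of 4 control arrays, and its difference of 1.98 ± 0.54 became 0.10 with normexp.

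On the lower side, Hoxd8, a homeobox transcription factor of body axis and limb patterning, moved least over the settings tried among the 12 genes with the smallest p. It was at -3.19, -2.89, -2.69 and -2.68 in controls and from -3.97 over -3.56 to -3.00 in ever depleted muscles. Control replicate 1 lay within the ever depleted range, the other controls above it. The difference was -0.69 ± 0.17 (unadjusted p = 0.00242), and -0.52, -1.07 and -0.50 within slides 1, 2 and 4 (chromosome 3, 57321608 to 57321667). It lay between -0.77 and -0.47 over all settings tried. Tstd3, with a sulfurtransferase-like domain, was at -3.77, -3.98, -4.31 and -4.38 in controls and from -5.73 over -4.70 to -4.05 in ever depleted muscles. Its difference was -0.86 ± 0.24, and -0.43 on the authors' values. Kif26b, a kinesin family member, was at -5.24, -4.82, -5.91 and -5.17 in controls and from -6.79 over -5.84 to -5.44 in ever depleted muscles, a difference of -0.70 ± 0.20, and -0.25 on the authors' values. Control replicate 3 was the only control low enough to fall among them.

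Others on the lower side were uneven between slides or dim. Pcp4, a small calmodulin-binding protein, differed by -1.14 ± 0.29, but 6 of 10 ever depleted muscles lay above the control mean and slide 2 gave -0.08. B4galnt1, a ganglioside-making enzyme, differed by -0.43 ± 0.11 and by -0.19 without the slide block, again with 6 of 10 muscles above the control mean. For 1700012B07Rkl the difference was -0.75 ± 0.21, with -0.71, -0.78 and -0.80 within the slides. Without the slide block it was -0.28. The remaining genes were Ube2q2l (-0.66 ± 0.15), C15h8orf74 (-0.78 ± 0.22) and the olfactory receptor genes Or5aq1b, Or52a5b and Or52ab2b, all dim on several arrays. On the authors' values these 5 differed by -0.16, -0.08, -0.15, -0.30 and -0.06.

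**Figure D2:**
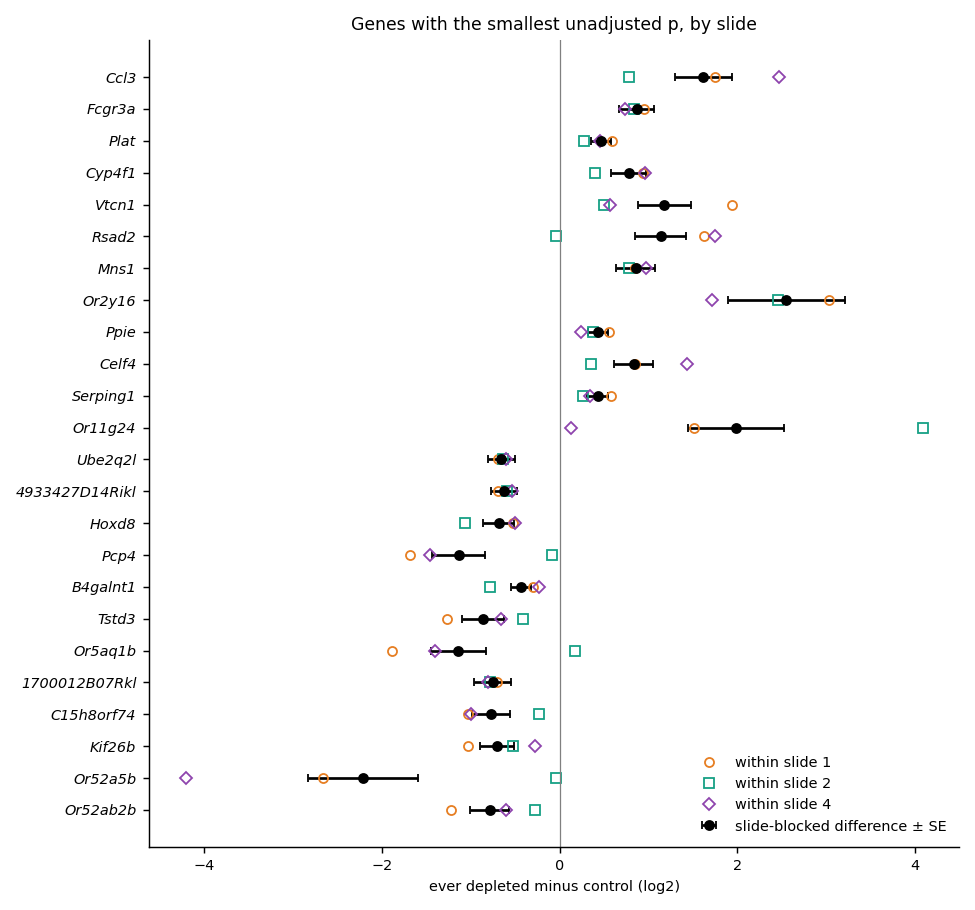
Ever depleted minus control in log2 for the 24 genes with the smallest unadjusted p, 12 higher and 12 lower; filled points with bars are the difference with slide as a block ± SE, and open points are the differences within slides 1, 2 and 4. The slides sit close together for Fcgr3a, Mns1, Ube2q2l and 1700012B07Rkl and far apart for Or11g24 and Or52a5b.

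Gene lists showed where small differences ran in 1 direction. Of 39 lists, those of macrophage markers, slow fibre genes, developmental sarcomere genes, red blood cell genes, interferon response and cytokines had the highest medians. Lists are described by counts and medians beside those of all genes, a median of -0.0033 with 49.1% higher. Of all genes, 1.73% were higher and 1.59% lower at an unadjusted p under 0.05 in limma. In whole muscle, more cells of a type and more RNA per cell cannot be told apart.

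Macrophage markers were higher in 20 of 23 measured members, by a median of 0.46, and 4 had an unadjusted p under 0.05, against 1.73% of all genes. The 4 were Fcgr3a, Fcgr1a, Fcgr2b and Aif1. Fcgr1a, the high-affinity antibody receptor, was at -0.66, -0.53, -0.65 and -1.10 in controls and from -1.04 over -0.11 to 0.27 in ever depleted muscles. Most of these lay above the controls and a few among them; the difference was 0.71 ± 0.24, and 0.67, 0.49 and 1.09 within the slides. Aif1, an actin-binding protein of macrophages, was at 0.19, 0.14, -0.10 and -0.36 in controls and from -0.21 over 0.62 to 1.01 in ever depleted muscles, again with partial overlap. It differed by 0.64 ± 0.22, by 0.57 in the depletion and 0.75 in the repletion group. The scavenger receptors Cd163 and Mrc1 were at 0.46 and 0.68 and the complement genes C1qa, C1qb and C1qc at 0.45, 0.55 and 0.62, with no p under 0.05. The colony-stimulating factor receptor Csf1r and the integrin Itgam were at -0.02 and -0.12.

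The macrophage score, the mean deviation of the members from their gene means, showed how uneven this was. It was -0.13, -0.26, 0.02 and -0.33 in controls, and 0.10, 0.22, -0.01 and 0.14 in repletion replicates 1 to 4. Among depletion muscles it was 0.53, 0.47, 0.30 and 0.08 in replicates 1, 2, 4 and 5, and -0.59 and -0.54 in replicates 3 and 6, which were lower than any control. In all, 8 of 10 ever depleted muscles lay above the control mean. The log2 summed level of 22 members ran from 3.97 to 4.39 in controls and from 3.65 to 5.25 in ever depleted muscles. Depletion replicates 3 and 6 lie on slides without controls, and without the slide block the list's median was 0.30. Within slides 1, 2 and 4 it was 0.63, 0.31 and 0.42.

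Interferon response genes, which cells switch on when they sense viral nucleic acid or interferon, were higher in 27 of 29 measured members, by a median of 0.34. There were 8 with an unadjusted p under 0.05 and 0 lower ones, against 1.73% higher and 1.59% lower of all genes. Rsad2, the antiviral protein viperin, was at -3.20, -3.33, -2.30 and -2.02 in controls and from -2.69 over -2.04 to -0.27 in ever depleted muscles. All 10 lay above the control mean, but many fell among controls 3 and 4. The difference was 1.14 ± 0.29 (unadjusted p = 0.00242), with 1.62, -0.04 and 1.75 within slides 1, 2 and 4, so slide 2 showed none of it (chromosome 6, 44100787 to 44100846). With replicate number as the block it was 0.67.

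Other members came with smaller or less certain differences. Psmb9, an immunoproteasome subunit, was at -0.61, -0.59, -0.78 and -0.53 in controls and from -0.70 over -0.35 to -0.09 in ever depleted muscles. It differed by 0.35 ± 0.11 and evenly over the slides, at 0.31, 0.43 and 0.31. Gbp2, a guanylate-binding protein, differed by 0.46 ± 0.17, and Ifit3, an RNA-sensing effector, by 0.70 ± 0.26. The chemokine Cxcl10 differed by 1.30 ± 0.54, the ubiquitin-like Isg15 by 0.64 ± 0.28 and Oasl by 1.22 ± 0.46, the last from a dim probe. Of the pathway's transcription factors, Stat2 was at 0.21 and Irf9 at 0.03, while Irf1 was at 0.03 and Irf7 at 0.35. The list's median was 0.14, 0.21 and 0.63 within slides 1, 2 and 4. Depletion replicate 5, on slide 4, had the highest score at 0.72, against 0.18 at most in the other ever depleted muscles and -0.36 to 0.00 in controls. All 10 ever depleted muscles were above the control mean of -0.17, but only 5 were above the highest control. Depletion replicates 1, 4 and 6 were barely above that mean, at -0.15, -0.16 and -0.16.

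To show what these interferon genes share in sequence, promoters were searched for the interferon-stimulated response element, the site bound by a complex that holds Stat2 and Irf9. The search used TTTCNNTTTC on both strands, in the 300 bases from 250 before to 50 after the start of each gene in RefSeq (GRCr8). It was found in 12 of 21 interferon list promoters (57.1%) and in 1034 of 27457 promoters of that length (3.77%). The list was made of known interferon targets, so that share says nothing of these diets. Among genes with the smallest p, 2 of 16 with a promoter sequence held it, Rsad2 and Fcgr3a, and 0 of 16 held DR3, the paired half-site of the vitamin D receptor, which 0.102% of all promoters hold. Below are the promoters of 4 members with an unadjusted p under 0.05 that held a match, with the match in capitals. They are Rsad2 (chr6:48788071-48788370, minus strand), Ifit3 (chr1:241527076-241527375, plus), Gbp2 (chr2:234005477-234005776, plus) and Cxcl10 (chr14:15988816-15989115, plus), each read 5′ to 3′ along its gene. A match is a description of letters, not a measured site.
Rsad2: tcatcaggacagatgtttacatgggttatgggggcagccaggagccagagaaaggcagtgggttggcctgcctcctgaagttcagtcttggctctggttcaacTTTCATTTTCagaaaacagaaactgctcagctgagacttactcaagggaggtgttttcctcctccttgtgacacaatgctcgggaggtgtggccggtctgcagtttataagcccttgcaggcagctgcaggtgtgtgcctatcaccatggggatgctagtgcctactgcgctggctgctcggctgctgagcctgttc
Ifit3: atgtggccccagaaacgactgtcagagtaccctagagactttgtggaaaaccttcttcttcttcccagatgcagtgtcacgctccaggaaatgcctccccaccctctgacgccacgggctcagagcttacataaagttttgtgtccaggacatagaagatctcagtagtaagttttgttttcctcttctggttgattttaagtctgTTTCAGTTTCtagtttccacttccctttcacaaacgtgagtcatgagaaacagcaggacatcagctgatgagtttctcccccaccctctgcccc
Gbp2: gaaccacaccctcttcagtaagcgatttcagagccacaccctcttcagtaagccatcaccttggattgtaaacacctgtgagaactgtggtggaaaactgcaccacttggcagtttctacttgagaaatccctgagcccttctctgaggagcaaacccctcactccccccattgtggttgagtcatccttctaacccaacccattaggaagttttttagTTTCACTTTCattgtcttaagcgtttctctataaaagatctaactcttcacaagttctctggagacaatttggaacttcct
Cxcl10: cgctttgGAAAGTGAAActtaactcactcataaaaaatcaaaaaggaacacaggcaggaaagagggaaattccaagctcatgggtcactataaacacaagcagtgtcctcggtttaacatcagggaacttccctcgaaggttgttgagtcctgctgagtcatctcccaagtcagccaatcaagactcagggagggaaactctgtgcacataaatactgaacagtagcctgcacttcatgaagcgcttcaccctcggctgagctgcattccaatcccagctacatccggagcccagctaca

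Cytokine and NF-kB genes were higher in 25 of 28 members, by a median of 0.27. An unadjusted p under 0.05 was found for 6, against 1.73% of all genes. The inflammatory cytokines Il1b and Tnf were at 0.95 ± 0.40 and 0.67 ± 0.28. Il18, which needs cleavage by caspase to act, was at -3.51, -3.77, -3.19 and -4.34 in controls and from -3.99 over -3.11 to -2.43 in ever depleted muscles, a difference of 0.70 ± 0.26. Cxcl1, which draws in neutrophils, was at -5.80, -6.15, -5.96 and -6.02 in controls and from -6.27 over -5.47 to -4.52 in ever depleted muscles. Of the 10, 9 lay above the control mean for each of these 2 genes; Cxcl1 differed by 0.81 ± 0.29, by 1.02 in the depletion and 0.47 in the repletion group. With normexp Cxcl1 was at 0.10 and Il18 at 0.33, and the list's median was 0.04. The NF-kB subunits themselves were near 0: Nfkb1 at 0.06, Rela at 0.03, Nfkb2 at -0.11 and the inhibitor Nfkbia at 0.02. Within slides 1, 2 and 4 the list gave 0.37, -0.03 and 0.47. In depletion replicate 1 the cytokine and macrophage scores were both 0.53, and in depletion replicate 3 they were -0.30 and -0.59; the part of macrophage markers in the cytokine list was not tested. The interferon score was -0.15 in depletion replicate 1 and 0.72 in depletion replicate 5, where the macrophage score was 0.08.

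Other immune cells showed less. Of 17 measured T and NK cell markers, 11 were higher, by a median of 0.09, and 3 had an unadjusted p under 0.05, against 1.73% of all genes. These were the NK receptor Klrd1 (0.89 ± 0.26) and the killing proteins Gzmb (0.91 ± 0.38) and Prf1 (0.46 ± 0.18). All 3 were dim, and with normexp they were at -0.09, 0.10 and 0.14. The T cell receptor chains Cd3d and Cd3g were at -0.12 and -0.03. B and plasma cell markers had a median of -0.01 over 9 genes and neutrophil and mast cell markers one of 0.08 over 16. Antigen presentation genes were higher in 15 of 21, by a median of 0.08, among them the peptide transporter Tap2 (0.57 ± 0.23) and the class II chaperone RT1-DMa (0.33 ± 0.14), whereas the invariant chain Cd74 was at -0.14. The medians of the T and NK cell and the antigen presentation lists changed sign in 2 of 29 settings each.

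Slow fibre genes, which build the sarcomere and calcium handling of fatigue-resistant fibres, were higher in 18 of 18 members. Their median was 0.41, and 7 had an unadjusted p under 0.05, against 1.73% of all genes. Myh7, the myosin heavy chain of slow fibres, was at 6.08, 6.66, 6.85 and 6.49 in controls and from 6.36 over 7.13 to 7.62 in ever depleted muscles (chromosome 15, 33073880 to 33073939). Of the 10, 9 lay above the control mean, with overlap at the low end; the difference was 0.67 ± 0.28, and 0.95, 0.32 and 0.57 within slides 1, 2 and 4. Myh7b, a related myosin, was at -1.42, -0.76, -0.83 and -0.35 in controls and from -1.11 over -0.16 to 0.56 in ever depleted muscles, a difference of 0.79 ± 0.28 with -0.11 within slide 4. Atp2a2, the calcium pump of slow fibres, was at 0.85 ± 0.36, the troponins Tnnc1 and Tnni1 at 0.79 ± 0.34 and 0.76 ± 0.34, the actin nucleator Lmod2 at 0.39 ± 0.16 and the fatty acid transporter Cd36 at 0.39 ± 0.15. The pump's inhibitor Pln was at 0.20 and the fatty acid carrier Fabp3 at 0.05.

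The slow fibre score was -0.16, -0.46, -0.08 and -0.50 in controls. It ran over -0.03, 0.34, 0.11 and -0.48 in repletion replicates 1 to 4, and over 0.47, -0.22, -0.24, 0.49, 0.32 and 0.44 in depletion replicates 1 to 6. High muscles were thus found in both depleted groups, while repletion replicate 4 was as low as the lowest control. Over the slides the median was 0.53, 0.24 and 0.71. The counterpart list of fast fibre genes had a median of -0.04 with 3 of 15 higher; the fast myosins Myh1, Myh2 and Myh4 were at 0.01, -0.01 and -0.09 and the calcium buffer Pvalb at -0.29.

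Developmental sarcomere genes, used by embryonic and regenerating fibres, were higher in 11 of 12, by a median of 0.40 with 0 at an unadjusted p under 0.05. The slides disagreed, at 0.42, -0.40 and 1.57. Their score in controls alone ran from -0.77 to 0.35. Of genes of the neuromuscular junction and denervation, 15 of 23 were higher, with a median of 0.05. Musk, the receptor kinase that organises the synapse, was at -5.49, -6.32, -5.09 and -6.06 in controls and from -6.75 over -6.16 to -5.79 in ever depleted muscles. All 10 were below the control mean, although controls 2 and 4 lay among them; the difference was -0.76 ± 0.23, and -0.15 on the authors' values. Etv5, a transcription factor of synaptic nuclei, was at 0.59 ± 0.20, and at 0.24 without control replicate 3. Schwann cell and myelin markers had a median of 0.23, with the myelin protein Mbp at 1.21 and no p under 0.05; their score reached 1.57 in 1 repletion muscle against at most 0.26 in controls.

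**Figure D3:**
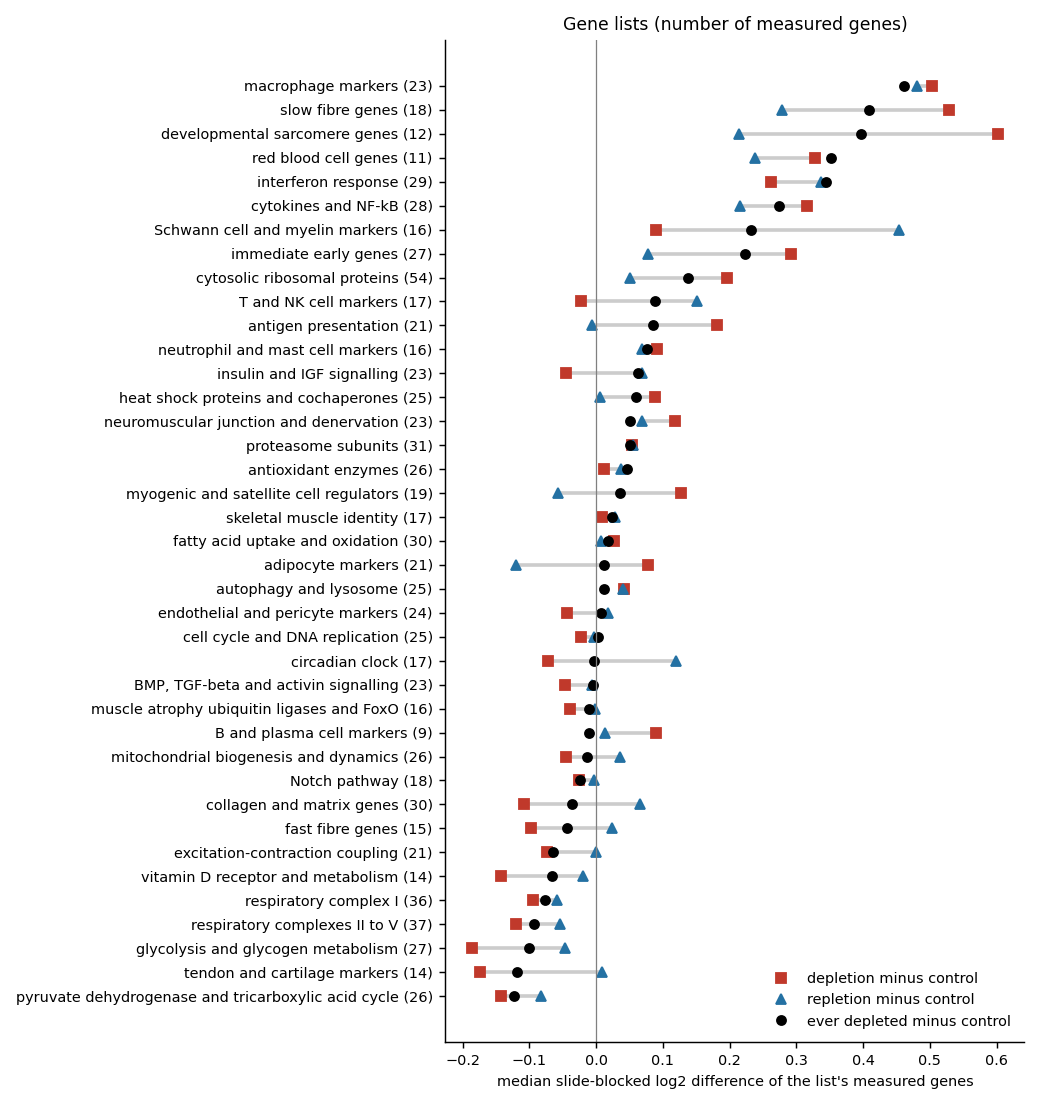
Median difference of the measured genes of 39 lists, with the number of genes in brackets; black circles are ever depleted minus control, red squares depletion minus control and blue triangles repletion minus control, all with slide as a block and against the same 4 controls. Macrophage markers (0.50 and 0.48) lie close together in the 2 groups, while slow fibre genes (0.53 and 0.28) and ribosomal proteins (0.20 and 0.05) lie further apart.

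Cytosolic ribosomal protein genes were higher in 53 of 54 members, by a small median of 0.14, and 0 had an unadjusted p under 0.05. Rplp0, of the ribosomal stalk, was at 7.67, 7.65, 7.74 and 7.76 in controls and from 7.63 over 7.86 to 8.06 in ever depleted muscles. Most were above the controls, and the difference was 0.22 ± 0.10. Rps24 differed by 0.24 ± 0.11 and Rpl23 by 0.20 ± 0.09, with all 10 above the control mean for both. The list's median was 0.20 in the depletion and 0.05 in the repletion group, and 0.16, 0.07 and 0.17 within slides 1, 2 and 4. Without depletion replicate 1, which had the highest score (0.28), it was 0.06. Repletion minus depletion had a median of -0.14, with 54 of 54 members lower, when depletion replicate 1 was placed by its title. It was -0.06, with 47 of 54 lower, when that muscle was counted as repletion.

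Immediate early genes, which respond within minutes to contraction, stretch or stress, were higher in 22 of 27, by a median of 0.22, with 1 at an unadjusted p under 0.05. That gene was Fos, at -0.63, -0.19, 0.36 and -0.15 in controls and from 0.13 over 1.08 to 2.22 in ever depleted muscles. All 10 lay above the control mean, and most lay above control replicate 3, the highest control. The difference was 0.98 ± 0.42, with 1.34 in depletion and 0.41 in repletion, and repletion minus depletion was -0.92 ± 0.31 (unadjusted p = 0.0151). Btg2, an antiproliferative gene, was at 0.61 and 0.09, and for Ier5 repletion minus depletion was -0.79 ± 0.21, or -0.65 ± 0.28 with depletion replicate 1 counted as repletion. Over the list, repletion minus depletion by title had a median of -0.25. By title 17 of 27 members were lower and 10 were higher, Nr4a1 at 0.54 among them. With depletion replicate 1 counted as repletion, the median was -0.23 and 22 of 27 were lower. Egr1 was at 0.13 and Jun at -0.06 in the pooled comparison. The list's median was 0.30, -0.11 and 0.60 within the slides. It was 0.09 without control replicate 2, 0.41 without control replicate 3 and 0.15 without control replicate 4 or depletion replicate 5.

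Many genes of energy metabolism had slightly lower levels, by amounts that depended on single muscles. In the glycolysis and glycogen list, 22 of 27 members had a lower level, the median difference was -0.10, and 0 had an unadjusted p under 0.05. The median was -0.04 without depletion replicate 1, -0.05 when control replicate 4 or depletion replicate 5 was left out, and -0.20 when control replicate 1 or repletion replicate 1 was. Pkm, pyruvate kinase of muscle, was at 3.97, 4.40, 4.51 and 4.61 in controls and from 3.17 over 3.88 to 4.39 in ever depleted muscles. Of the 10, 9 lay below the control mean, and both probes were lower, with differences of -0.53 ± 0.27 and -0.57. Ldhb, the lactate dehydrogenase subunit of oxidative tissue, was at 0.41 ± 0.23. Of 26 genes of pyruvate dehydrogenase and the tricarboxylic acid cycle, 19 were lower, and the median was -0.12. Idh3a, the catalytic subunit of the cycle's NAD-linked isocitrate dehydrogenase, was at 1.36, 1.54, 1.61 and 1.61 in controls and from 0.69 over 1.34 to 1.67 in ever depleted muscles. With 9 of 10 below the control mean, the difference was -0.40 ± 0.15, and -0.40, -0.33 and -0.48 within the slides. Without depletion replicate 1 the median of the cycle list was -0.0004.

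Respiratory chain genes followed the same small direction, with 28 of 36 complex I genes lower (median -0.08) and 30 of 37 genes of complexes II to V (median -0.09). For these the slides differed in sign, complex I being at -0.20, -0.04 and 0.06. Depletion replicate 1, on slide 1, had the lowest scores, -0.52 for complex I and -0.47 for complexes II to V. The other ever depleted muscles ran from -0.08 to 0.14 for complex I, against -0.10 to 0.10 in controls. For complexes II to V they ran from -0.13 to 0.13, against -0.09 to 0.12 in controls. Fatty acid oxidation genes had a median of 0.02 with 16 of 30 higher. Among antioxidant genes the haem oxygenase Hmox1 was at 0.69 ± 0.27 and the peroxidase Gpx1 at 0.49 ± 0.21, in a list with a median of 0.05. Red blood cell genes were higher in 9 of 11, by a median of 0.35, with 0 at an unadjusted p under 0.05; the globins Hbb and Hba-a1 were at 0.67 and 0.54. The log2 summed level of these 11 ran from 6.36 to 6.98 in controls and from 6.19 to 8.15 in ever depleted muscles.

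**Figure D4:**
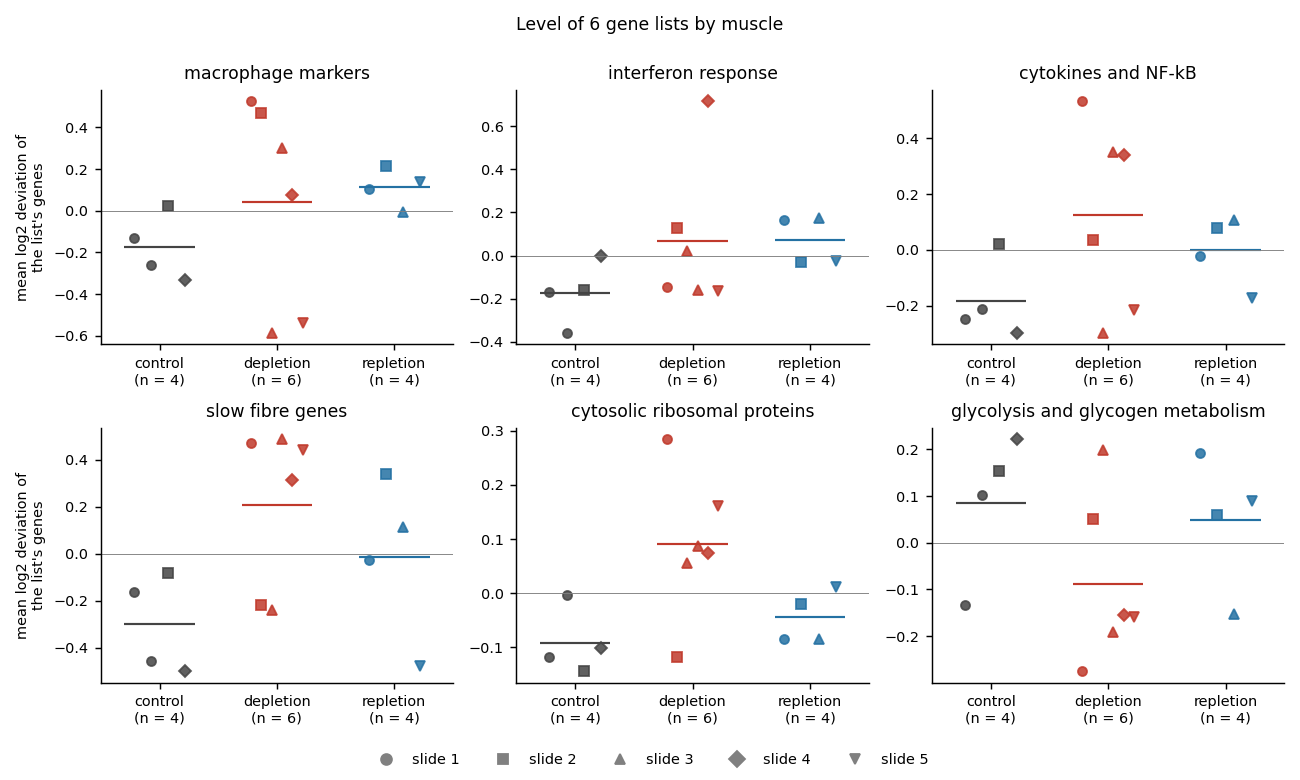
Mean log2 deviation of the members of 6 gene lists in each muscle; each point is 1 muscle, its shape gives the slide, and horizontal lines are group means. Depletion muscles spread widely in the macrophage panel (-0.59 to 0.53), depletion replicate 5 stands above the rest for interferon response (0.72), and none of these 6 lists separates the 10 ever depleted muscles from the 4 controls.

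The vitamin D pathway itself differed little in the pooled comparison. Of 14 measured genes 10 were lower, with a median of -0.07 and 1 unadjusted p under 0.05. By title the list's median was -0.14 in the depletion and -0.02 in the repletion group, and 12 of 14 members were higher in repletion than in depletion. Vdr was at -4.13, -4.24, -4.78 and -3.09 in controls and from -5.53 over -3.94 to -3.51 in ever depleted muscles. Control replicate 4 was the highest of all 14, and 7 of 10 ever depleted muscles lay above the control mean. The blocked difference was -0.36 ± 0.23, with 0.20, -0.46 and -1.34 within slides 1, 2 and 4, and -0.07 without control replicate 4 (chromosome 7, 136567655 to 136567714). Repletion minus depletion for Vdr was 0.30 ± 0.21 by title (limma's unadjusted p = 0.19). With depletion replicate 1 counted as repletion it was 0.46 ± 0.20 (limma's unadjusted p = 0.0427). Neither passed adjustment. Cyp27b1, which makes the hormone, was at -0.05 ± 0.11, and the partner receptors Rxra, Rxrb and Rxrg at -0.06, -0.08 and -0.06. Cyp27a1, a mitochondrial sterol hydroxylase that can 25-hydroxylate vitamin D, was at -0.28, -0.01, 0.19 and 0.08 in controls and from -0.95 over -0.34 to 0.14 in ever depleted muscles. It was the gene with p under 0.05, at -0.45 ± 0.19, similar in depletion (-0.48) and repletion (-0.40), and with -0.50, -0.35 and -0.51 within the slides. With replicate number as the block it was -0.24. Dhcr7, which removes the precursor of skin-made vitamin D, was at -0.36 ± 0.18. The uptake receptor Lrp2 was not well above background on any control array and was on 5 of 10 ever depleted arrays, through which alone it passed the filter on dim probes; with normexp its difference was -0.21. Cyp24a1, Cyp2r1 and Gc did not pass the filter on dim probes. The muscle ubiquitin ligase Fbxo32 was at -0.21 ± 0.24, and at -0.06 without control replicate 3. The receptor Notch1 was at 0.12 ± 0.16 by its brightest probe, 0.56 by its other, dimmer probe and 0.34 as their mean.

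Whether the pooled groups belong together was tested by repletion minus depletion in 1 model. Here too 0 of 26391 probes (0.0%) passed limma's adjusted p of 0.05, the lowest being 0.933; 917 probes (3.47%) had an unadjusted p under 0.05. Against the shared controls, depletion and repletion gave the following values side by side. For Plat they were 0.49 and 0.42, for Ppie 0.39 and 0.49, for Vtcn1 1.17 and 1.19, and for Hoxd8 -0.66 and -0.73. In these 4 genes repletion minus depletion was -0.06 ± 0.11, 0.10 ± 0.11, 0.02 ± 0.30 and -0.07 ± 0.18, sizes within 1 SE of 0 which do not show that the groups were alike. The 4 were named for their pooled difference, a choice that itself favours similar values in both groups. All these values place depletion replicate 1 by its title. Counted as repletion, as its diet field has it, it moved Vtcn1 to 0.35 ± 0.30 in repletion minus depletion. Hnrnpa1 was at 0.76 and 0.37 by title, and repletion minus depletion was -0.39 ± 0.13 (unadjusted p = 0.0133). Depletion replicate 1 is its highest muscle (2.84), and counted as repletion it left -0.21 ± 0.18 (unadjusted p = 0.267). For Fos the same change gave -0.89 ± 0.35 (unadjusted p = 0.0317). Each comparison of 1 depleted group with control also called 0 probes, with lowest adjusted p values of 0.832 and 1.0.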

How the data were processed

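Arrays were 1-colour Agilent rat arrays. Per the file headers, the authors' scanner files give an intensity per spot, background-subtracted within each array by Agilent Feature Extraction 11.5.1.1; the deposited series table holds log2 values normalized between arrays by the authors, made with limma per the submitters' processing notes, and served only as an alternative. Here spots marked as outliers were set missing, spots of a probe averaged, and log2 taken relative to each array's 75th percentile. A probe was kept when 4 or more of the 14 arrays had it well above background and each group had 2 or more values (26391 probes, 17454 genes, each by its brightest probe). Of 30367 probes, 18892 were named by accession, 3299 by symbol, 1702 kept the file's name and 6474 had none; coordinates are those of the files (rn4). Where a probe lies within its transcript was not analysed here.

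limma 3.58.1 in R 4.3.3 fitted ever depleted against control, and 3 diets in a second model, with slide as a block, moderated tests and Benjamini-Hochberg adjustment at 0.05. All p-values in the report come from limma unless named as exact permutation tests. Members, lists and rules were chosen with earlier results of these data known. Genes named were, per direction, 12 with the smallest unadjusted p and 6 with the largest difference among those without overlap and of 1 sign within slides, both well above background on at least 7 arrays and not predicted loci; 3 per list for 12 lists; and 7 chosen for the study's question. Other list members and Hnrnpa3 were chosen after their values were seen. Some single-gene results are not reported here. List medians carry no test. Whether replicate numbers pair muscles was checked by the correlation of deviations from group means. It ran from 0.232 to 0.717 for same-numbered muscles on 1 slide and from -0.489 to 0.391 for the others. Slide was not removed there, so the check cannot tell whether the numbers pair muscles, and they were not taken as pairs. The fit was tested on simulated data. Alternatives are in the closing section, except that the recount of depletion replicate 1 as repletion, in repletion minus depletion, was chosen after seeing the data and stands in the report.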

Additional observations from a re-analysis of the deposited data

Results flagged for a closer look

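In groups of 4 to 10 muscles, the highest or lowest muscle was set against its nearest neighbour, relative to the group's range (Dixon's test at 95%). Of 251 groups tested, over the genes named and the list scores, 13 had such a muscle; chance gives about 1 in 20, so this number is about what chance gives.

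Among controls, replicate 2 was low for Plat at 0.01334 (nearest 0.2226) and high for Sort1 at -0.02549 (nearest -0.2677). Control replicate 1 was low for Or52a5b at -8.306 (nearest -5.802), and control replicate 4 high for Rnf225 at -6.665 (nearest -6.964). The Plat and Sort1 values both lie on the far side from the ever depleted muscles.

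Among repletion muscles, replicate 1 was high for Ccl3 at -5.419 (nearest -6.221) and low for Fcgr3a at -6 (nearest -5.355) and Pcp4 at -5.908 (nearest -3.941). Repletion replicate 4 was low for Gbp2 at -0.4842 (nearest 0.07538) and high for Cyp27a1 at 0.1439 (nearest -0.3265). Among depletion muscles, replicate 4 was low for Rnf225 at -9.463 (nearest -7.825) and replicate 1, the muscle with conflicting labels, low for Idh3a at 0.6921 (nearest 1.126). For list scores, depletion replicate 6 was low for antigen presentation at -0.3127 (nearest 0.017) and depletion replicate 5 high for interferon response at 0.7158 (nearest 0.1295).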

How the results depend on the processing

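No probe was called at an adjusted p under 0.05 in any of the alternative fits; the lowest adjusted p was 0.0858, without control replicate 3. At an unadjusted p under 0.05, limma gave 432 higher and 423 lower probes, but 153 higher with normexp (579 lower), which moved the median of all probes to -0.1323 and the share of higher probes from 50.5% to 20.9%. With the replicate block in place of slide there were 284 higher and 627 lower, and 0 called. Leaving out 1 muscle at a time gave 333 to 951 higher and 295 to 1445 lower probes; 951 and 1445 came without repletion replicate 1. Of 2018 values of the 70 named genes, 10 turned sign, in 7 genes. With normexp these were Fcgr3a (-0.04677), Celf4 (-0.1641), Klrd1 (-0.08599) and Lrp2 (-0.2108). Without control replicate 4 or without depletion replicate 5, which together make up slide 4, they were Cyp27b1 (0.03689), Rxra (0.08371) and Notch1 (-0.008824); with 1 muscle left out in turn these ran from -0.102 to 0.03689, from -0.2093 to 0.08371 and from -0.008824 to 0.2262. The causes were not tested. Medians kept their sign in 29 of 29 settings for 10 of the 12 lists examined this way, with macrophage markers from 0.30 to 0.63, slow fibre genes from 0.31 to 0.68 and interferon response from 0.16 to 0.38. Some settings could not change the blocked difference of a list or gene: leaving out a muscle of slide 3 or 5, and keeping slides 1, 2 and 4 alone. Leaving out control replicate 4 or depletion replicate 5 gives the same difference, as either removes slide 4 from it. Counts over settings, of lists or of named genes, are therefore not counts of separate checks. Dim probes limit the immune and olfactory genes, and 9 muscles carry the blocked difference.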
